A study of Mus musculus with 64 samples.

Results

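The comparison described here set the cochlea against the vestibular organ of mouse embryos at E11, E11.5 and E12. All 12 arrays with those labels were taken, 6 of cochlea and 6 of vestibular organ, out of 64 in the series. The cochlea groups hold the ventral region of the inner ear epithelium and the vestibular organ groups its dorsal region without the endolymphatic duct. Every embryo was of the CBA/J strain, with no treatment or engineered allele named in the labels, and each of the 6 groups has 2 arrays, 1 per pool of tissue from different litters. Pools held 9 to 16 cochlear tissues and 12 to 17 vestibular tissues. Epithelium was freed from the surrounding tissue in dispase for 20 to 25 minutes in both tissues. The other groups used here were the same regions at E10.5 (dispase for 8 to 10 minutes) and the cochlea, the utricle with ampullae and the saccule at E12.5 to E13.5. RNA was measured as biotin-labelled cRNA on Affymetrix arrays, and the values are signals in arbitrary units.

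The inner ear epithelium starts as a closed vesicle, the otocyst. Its ventral part grows out as the cochlear duct and its dorsal part forms the vestibular organs, the semicircular canals and the endolymphatic duct. Hedgehog signals from the notochord and floor plate act on the ventral side and Wnt signals from the dorsal hindbrain on the dorsal side, while retinoic acid, made from retinaldehyde by Aldh1a enzymes and degraded by Cyp26 enzymes, acts along the axis of the vesicle. Transcription factors such as Otx2 and Gata3 are known for roles in the cochlea, and Dlx, Hmx and Tbx family members for roles in the vestibular organs.

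The 12 arrays differed in ways that touch every value below. Their deposited signals had array means of 327.7 to 348.1 in the cochlea and 418.2 to 443 in the vestibular organ, and maxima of 9660 to 10448 in the cochlea and 13192 to 14229 in the vestibular organ. Within the 12 arrays this difference in scale goes with the tissue. Over the series it does not, since the 12 cochlear arrays of E12.5 to E15 had maxima of 13291 to 14691 and the 8 of E10.5 to E12 had 9660 to 10969. At E11 to E12 the scale and the tissue cannot be told apart, and the arrays were brought to 1 common distribution by quantile normalization. The median difference over all genes was −0.26 on the log2 scale before this step and −0.01 after it. Every difference below is relative to the normalized median. The 4 arrays of E11 stood apart, with 9.81 to 12.04% of their values at the floor of 10, against 5.43 to 8.49% on the 8 arrays of E11.5 and E12. The 2 pools of a group correlated at 0.985 or above over all genes. With 2 pools per group and stage, the number of arrays limits the precision.

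Averaged over the 3 stages, 135 of 9352 genes (1.44%) differed between the tissues at an adjusted p below 0.05 and a log2 difference of at least 1 in size (limma, Benjamini-Hochberg over all genes). Of these, 64 (0.684%) were higher in the cochlea and 71 (0.759%) were lower. With the values as deposited 34 were higher and 176 lower, and a pseudocount of 64 in place of 16 called 35 higher and 37 lower. Differences are log2(signal + 16) in the cochlea minus the vestibular organ, so that folds of dim genes are understated, and ± gives the standard error throughout. Without a size limit, 1418 genes passed. Taken stage by stage, 123 genes were called at E11 (1.32%), 48 of them higher (0.513%) and 75 lower (0.802%) in the cochlea. At E11.5, 142 were called (1.52%), 68 higher (0.727%) and 74 lower (0.791%), and at E12, 185 (1.98%), 72 higher (0.77%) and 113 lower (1.21%). The count at E11.5 fell by over 1.5 times, to 92, without the second cochlea pool of E11.5. Without the E11 arrays the mean of E11.5 and E12 called 168 genes (1.8%), 77 higher (0.823%) and 91 lower (0.973%), among them 126 of the 135. Of the 135, 132 had the same sign at each stage, and in 105 the lowest signal of 1 tissue lay above the highest of the other over all 12 arrays, against 654 of all genes (6.99%). The 135 were chosen on the mean of these same arrays, which favours both counts. Both therefore describe the calls and are no separate support for them. In bulk tissue, fewer cells of a type and less RNA per cell cannot be told apart.

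The gene with the largest positive difference was Clu, which encodes the secreted chaperone clusterin. Its signals were 1276 and 1056 at E11, 1920.3 and 1531 at E11.5, and 2918 and 3547 at E12 in the cochlea, against 104 and 128 at E11, 115 and 107 at E11.5, and 142 and 139 at E12 in the vestibular organ. The difference averaged 3.77 ± 0.21 (SE, adjusted p = 4.6e-17), a 13.6-fold ratio, and all 4 probe sets of the gene showed it, between 3.57 and 3.97. In the cochlea the Clu signal was higher at each later stage, while the vestibular values stayed in a narrow band. Fst encodes follistatin, a secreted inhibitor of activins that also binds BMPs. Its signals were 303 and 265 at E11, 471 and 379 at E11.5, and 566 and 460.2 at E12 in the cochlea, against 47.0 and 73.5 at E11, 34.6 and 17.5 at E11.5, and 23.0 and 15.2 at E12 in the vestibular organ. Fst averaged 3.11 ± 0.14 (SE, adjusted p = 8.3e-20), and the 2 tissues moved apart from both sides. Tac1 encodes the precursor of substance P and neurokinin A. Its signals were 76.6 and 56.7 at E11, 282 and 218 at E11.5, and 701 and 849 at E12 in the cochlea, against 15.7 and 15.0 at E11, 11.9 and 16.4 at E11.5, and 18.9 and 17.3 at E12 in the vestibular organ. The vestibular arrays sat close to the floor throughout, and the cochlear signal at E12 was about an order of magnitude above that at E11, with a mean difference of 3.02 ± 0.13 (SE, adjusted p = 3.7e-20).

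Hey2, a transcriptional repressor that acts downstream of Notch and other signals, had signals of 403 and 352 at E11, 573 and 577 at E11.5, and 604 and 547 at E12 in the cochlea, against 57.5 and 89.8 at E11, 69.4 and 41.8 at E11.5, and 56.6 and 36.3 at E12 in the vestibular organ. No vestibular value came near the cochlear ones, and the difference was 2.83 ± 0.16 (SE, adjusted p = 4.6e-17). Frzb, a secreted antagonist of Wnt ligands, had a lowest value of 547, a median of 873 and a highest value of 1276 in the cochlea, against a lowest value of 88.2, a median of 113 and a highest value of 143 in the vestibular organ. Its difference was 2.76 ± 0.20 (SE, adjusted p = 3.9e-14), and its second probe set gave 2.97. Rspo2, a secreted enhancer of Wnt signalling, had a lowest value of 134, a median of 141 and a highest value of 174 in the cochlea, against a lowest value of 10, a median of 18.0 and a highest value of 30.1 in the vestibular organ. It was higher in the cochlea by nearly the same amount at every stage (2.29 at E11, 2.14 at E11.5 and 2.27 at E12).

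Muc15, a membrane mucin, had a lowest value of 171, a median of 195 and a highest value of 347 in the cochlea, against a lowest value of 12.3, a median of 22.7 and a highest value of 27.9 in the vestibular organ. Its difference was 2.71 ± 0.15 (SE, adjusted p = 4.4e-17). It was 2.29 at E11 and 3.08 at E12, a change of 0.79 ± 0.37 that did not pass the test between stages. Slc39a8, a transporter of zinc and manganese, had a lowest value of 277, a median of 417 and a highest value of 448 in the cochlea, against a lowest value of 42.0, a median of 75.8 and a highest value of 132 in the vestibular organ (2.12 ± 0.14, adjusted p = 2.7e-15). Moxd1, a monooxygenase, had a lowest value of 314, a median of 397 and a highest value of 444 in the cochlea, against a lowest value of 67.4, a median of 78.9 and a highest value of 88.2 in the vestibular organ (2.12 ± 0.10, adjusted p = 6.8e-19). Both were clearly measured in either tissue, without overlap. Car13, a carbonic anhydrase, had 181 to 288 in the cochlea and 26.6 to 66.2 in the vestibular organ (2.01 ± 0.13, adjusted p = 1.7e-15). Cd36, a fatty acid transporter and scavenger receptor, had 53.0 to 184 in the cochlea and 10 to 44.4 in the vestibular organ (1.85 ± 0.24, adjusted p = 2.0e-07). Ntng1, a membrane-anchored netrin, had 268 to 317 in the cochlea and 40.6 to 68.7 in the vestibular organ (2.13 ± 0.15, adjusted p = 2.4e-14), but its second probe set gave only 0.11, so its call rests on 1 probe set. In each of the 15 leading genes on this side, Otx2, Sox21 and Efnb2 among them, the tissues did not overlap.

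**Figure D1:**
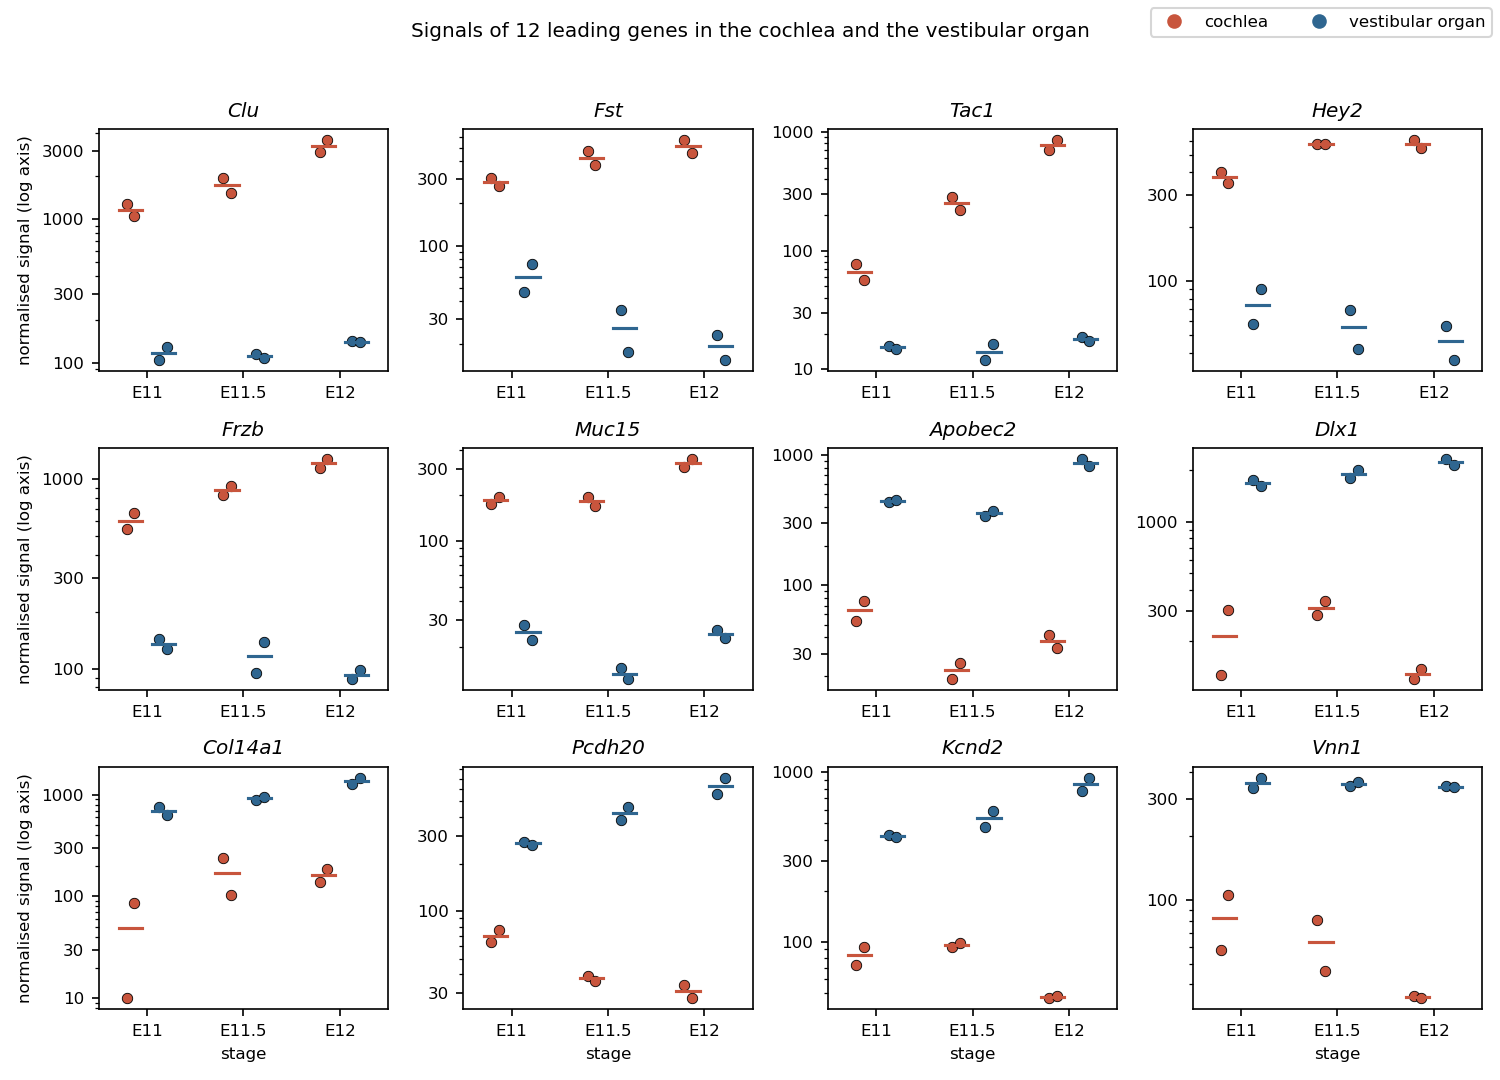
Normalised signal by stage of the 6 leading genes that were higher and the 6 that were lower in the cochlea, on log axes that differ between panels. Points are single arrays (2 per tissue and stage), bars are their means, with the cochlea to the left of the vestibular organ. Clu, Fst, Tac1, Hey2, Frzb and Muc15 are higher and Apobec2, Dlx1, Col14a1, Pcdh20, Kcnd2 and Vnn1 lower on every cochlear array than on any vestibular array.

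On the other side, Apobec2, a member of the cytidine deaminase family, had the largest negative difference. Its signals were 53.7 and 75.9 at E11, 19.0 and 25.5 at E11.5, and 41.8 and 33.0 at E12 in the cochlea, against 436 and 453 at E11, 339 and 374 at E11.5, and 934 and 822 at E12 in the vestibular organ. The difference was −3.29 ± 0.23 (SE, adjusted p = 2.9e-14), a 9.8-fold ratio of vestibular organ over cochlea. It was −2.52 at E11, −3.29 at E11.5 and −4.07 at E12, but the change from E11 to E12 did not pass the test between stages. Dlx1 encodes a homeodomain transcription factor. Its signals were 127 and 304 at E11, 286 and 345 at E11.5, and 120.4 and 138 at E12 in the cochlea, against 1754 and 1626 at E11, 1793 and 2009 at E11.5, and 2326 and 2145 at E12 in the vestibular organ. The cochlear pools of E11 differed among themselves, yet every one lay far below the vestibular arrays, with a difference of −3.16 ± 0.33 (SE, adjusted p = 1.3e-09). Pcdh20, a protocadherin of the cell surface, had signals of 63.5 and 76.4 at E11, 38.9 and 36.0 at E11.5, and 33.8 and 28.0 at E12 in the cochlea, against 277 and 265 at E11, 383 and 462 at E11.5, and 555 and 707 at E12 in the vestibular organ. Its cochlear values were lower and its vestibular values higher at each later stage, and the mean difference was −2.85 ± 0.16 (SE, adjusted p = 3.1e-17).

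Kcnd2 encodes a voltage-gated potassium channel subunit of the rapidly inactivating A-type current. It had a lowest value of 46.5, a median of 83.1 and a highest value of 98.8 in the cochlea, against a lowest value of 415, a median of 534 and a highest value of 926 in the vestibular organ, with a difference of −2.73 ± 0.20 (SE, adjusted p = 1.3e-13), and its second probe set gave −2.80. Timp3, an inhibitor of matrix metalloproteinases, had a lowest value of 42.6, a median of 63.3 and a highest value of 89.9 in the cochlea, against a lowest value of 234, a median of 325 and a highest value of 599.8 in the vestibular organ. All 4 of its probe sets were called, from −2.48 to −1.11, and the gap was wider at E12 (−3.21) than at E11 (−1.41). Vit, which encodes the matrix protein vitrin, was at the floor on all 6 cochlear arrays and at 53.4 to 154 in the vestibular organ. Its 4.16-fold ratio of vestibular organ over cochlea is therefore a lower bound. Cbln1, a secreted organizer of synapses, had a lowest value of 231, a median of 267 and a highest value of 452 in the cochlea, against a lowest value of 986, a median of 1253 and a highest value of 1319 in the vestibular organ, with a difference of −1.98 ± 0.16 (SE, adjusted p = 9.7e-13).

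Col14a1, a collagen associated with fibrils, had a lowest value of 10, a median of 122 and a highest value of 240.5 in the cochlea, against a lowest value of 629, a median of 919 and a highest value of 1466 in the vestibular organ, with 1 cochlear array at the floor. Its difference was −3.05 ± 0.25 (SE, adjusted p = 4.2e-12) on the probe set used and −0.07 on its other probe set, which was not called. Vnn1, a pantetheinase, had 34.5 to 106 in the cochlea and 339 to 376 in the vestibular organ (−2.35 ± 0.17, adjusted p = 1.3e-13). Arhgap20 had 55.3 to 162 in the cochlea and 352 to 647 in the vestibular organ (−2.03 ± 0.15, adjusted p = 7.9e-14). Neither gene had an overlap between the tissues. Ap3b2, a neuronal subunit of a vesicle adaptor, had signals of 214 and 393 at E11, 37.7 and 41.2 at E11.5, and 15.9 and 29.5 at E12 in the cochlea, against 846 and 768 at E11, 264 and 291 at E11.5, and 289 and 255 at E12 in the vestibular organ (−2.25 ± 0.25, adjusted p = 6.1e-09). Ap3b2 was the only one of these 15 whose tissues overlapped, because 1 of its cochlear signals of E11 (393) lay above the vestibular signals of E11.5 and E12 (255 to 291). It was lower in the cochlea at each stage (−1.42 at E11, −2.40 at E11.5 and −2.92 at E12).

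**Figure D2:**
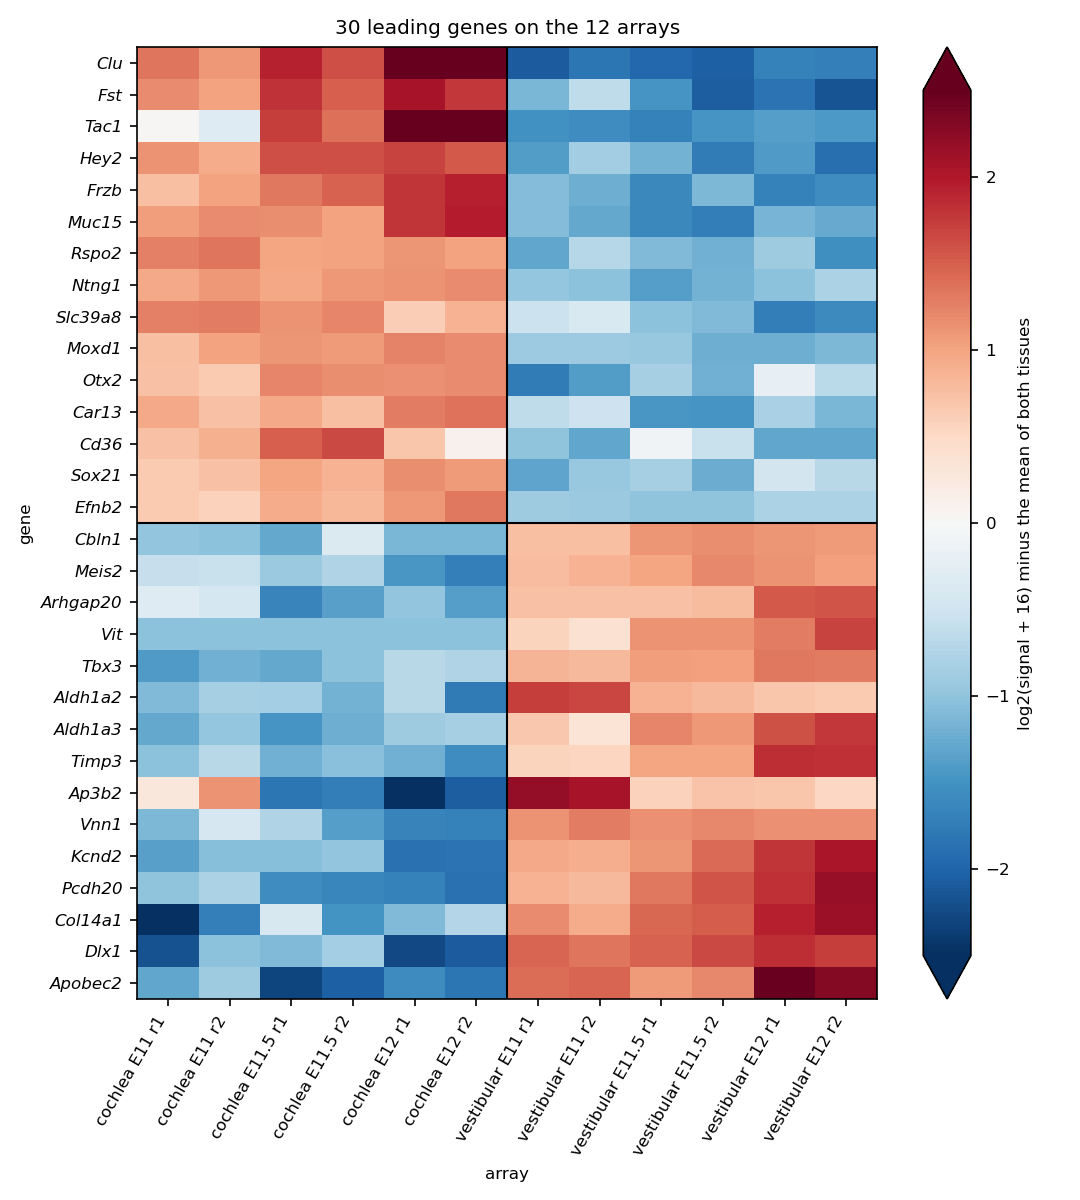
Colours give log2(signal + 16) minus the mean of the 2 tissue means, for the 15 leading genes on each side (rows) on the 12 arrays (columns), 6 cochlear arrays to the left of 6 vestibular arrays. Rows above the line are higher and rows below it lower in the cochlea. Ap3b2 is the only row whose tissues overlap.

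Regulators of the ventral and dorsal otocyst were measured next. Of 15 genes tested from a list of ventral and cochlear regulators, 3 were higher in the cochlea, against 0.684% of all genes. A further 1 was lower, against 0.759%, and 11 did not pass. The list median was 0.29, against −0.01 over all genes. In either direction 1.44% of all genes were called, and these shares are the background for every list below. The lists were chosen with earlier results of these data known. Otx2, a homeodomain factor required for the cochlea in mice, had signals of 336 and 317 at E11, 478 and 460.0 at E11.5, and 452 and 464 at E12 in the cochlea, against 47.2 and 65.2 at E11, 103 and 76.3 at E11.5, and 168 and 118 at E12 in the vestibular organ. Every cochlear array lay above every vestibular array, and the difference was 2.02 ± 0.14 (SE, adjusted p = 7.6e-15). Gata3, a zinc finger factor needed for the cochlea and its innervation, had a lowest value of 255, a median of 309 and a highest value of 417 in the cochlea, against a lowest value of 63.6, a median of 86.3 and a highest value of 132 in the vestibular organ. Its difference was 1.62 ± 0.16 (SE, adjusted p = 3.8e-10), and it was larger at E12 (2.15) than at E11 (1.04), a change that did not pass the test between stages. Isl1, a LIM homeodomain factor of prosensory cells and neurons, was higher by 1.28 ± 0.15, with 1 cochlear E11 value inside the vestibular range and 0.97 on its second probe set. Tbx1, a T-box factor, went the other way, with 381 to 546 in the cochlea and 929.9 to 1194 in the vestibular organ and a difference of −1.23 ± 0.19 (SE, adjusted p = 6.8e-06). Gsc (0.87) and Nr2f1 (0.86) did not reach the size limit, although their adjusted p-values were 0.0064 and 0.0025. Otx1 and Pax2 were not measured here.

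Of 17 tested genes from a list of dorsal and vestibular regulators, 4 were lower in the cochlea, against 0.759% of all genes, 1 was higher, against 0.684%, and 12 did not pass, with a median of −0.23. At a pseudocount of 64, 2 were lower. Besides Dlx1 these were the TALE homeodomain factors Meis2 and Meis1 and the homeobox gene Hmx2. Meis2 had signals of 135 and 137 at E11, 102 and 118 at E11.5, and 65.6 and 52.8 at E12 in the cochlea, against 369.8 and 394 at E11, 426 and 504 at E11.5, and 471 and 443 at E12 in the vestibular organ. The gap was −1.99 ± 0.11 (SE, adjusted p = 1.2e-17) and was wider at E12 (−2.66) than at E11 (−1.39), with lower signals in the cochlea and somewhat higher signals in the vestibular organ. Hmx2, required for the vestibular system in mice, was at the floor on 5 of 6 cochlear arrays, with a highest value of 22.2, against 53.0 to 95.8 in the vestibular organ (−1.64 ± 0.16, adjusted p = 1.6e-10). Meis1 had 26.1 to 54.4 in the cochlea and 104 to 136 in the vestibular organ (−1.37 ± 0.12, adjusted p = 6.4e-12). The list member that was higher in the cochlea was Rspo2, a Wnt signal enhancer rather than a transcription factor. Hmx3 (−0.58), Gbx2 (−0.90), Lmx1a (−0.47), Dlx5 (−0.17), Dlx6 (−0.23) and Msx1 (−0.15) did not pass, although the tissues did not overlap for Hmx3 and Lmx1a.

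Among families of transcription factors, 2 of 13 TALE and Iroquois genes passed, against 1.44% of all genes. Both were Meis members and both were lower in the cochlea. Of 8 T-box genes 2 passed, again both lower: Tbx1 and Tbx3, a repressor of the T-box family. Tbx3 had signals of 327 and 381 at E11, 363 and 435 at E11.5, and 548 and 531 at E12 in the cochlea, against 1643 and 1599 at E11, 1879 and 1848 at E11.5, and 2278 and 2226 at E12 in the vestibular organ. Its difference was nearly constant over the stages (−2.15 at E11, −2.19 at E11.5 and −2.03 at E12), with a mean of −2.12 ± 0.12 (SE, adjusted p = 4.6e-17). Of 13 Sox genes, Sox21 was higher and Sox13 lower in the cochlea. Sox21, a factor expressed in sensory patches, had a lowest value of 1783, a median of 2138 and a highest value of 2516 in the cochlea, against a lowest value of 441, a median of 598 and a highest value of 814 in the vestibular organ (1.83 ± 0.19, adjusted p = 7.3e-10). Sox13 was at −1.15 ± 0.21. Sox2, which marks the prosensory domain, was at 0.51 ± 0.09 and did not reach the size limit, although its signals did not overlap (369 to 438 in the cochlea and 254 to 321 in the vestibular organ). Of 13 Hox genes none passed with limma, 1 had an unadjusted p below 0.05, and Hoxc4 was at the floor on all 12 arrays.

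Of 12 tested genes of the retinoic acid pathway, 7 were called (58.3%), against 1.44% of all genes, with a median of −0.45. At a pseudocount of 64 this fell to 1 higher and 2 lower. The list was chosen with earlier results of these data known, so its share is a description and not a test. The enzymes that make retinoic acid were lower in the cochlea. Aldh1a3, a retinaldehyde dehydrogenase, had signals of 77.5 and 101 at E11, 65.9 and 82.1 at E11.5, and 107 and 112 at E12 in the cochlea, against 347 and 273 at E11, 514 and 471 at E11.5, and 674 and 762 at E12 in the vestibular organ. Its difference was −2.23 ± 0.15 (SE, adjusted p = 6.9e-15), and all 3 of its probe sets were called. Aldh1a2, of the same family, had signals of 60.6 and 76.8 at E11, 75.3 and 56.8 at E11.5, and 86.0 and 32.2 at E12 in the cochlea, against 534 and 512 at E11, 286 and 276 at E11.5, and 251 and 244 at E12 in the vestibular organ. It differed by −2.15 ± 0.27 (SE, adjusted p = 1.4e-07), with the widest gap at E11 (−2.68). The change of this gap from E11 to E12 did not pass the test between stages. Aldh1a1 was lower by a difference of −1.23 ± 0.15, where 2 cochlear values were at the floor and the tissues overlapped, and Rdh10, which makes retinaldehyde from retinol, by a difference of −1.09 ± 0.13 (85.7 to 141 in the cochlea and 212 to 261 in the vestibular organ, with a difference of −0.99 without the second cochlea pool of E11.5). Crabp1, a cytoplasmic carrier of retinoic acid, had 669 to 2500.2 in the cochlea and 1909.6 to 5927 in the vestibular organ, which overlapped. Its difference was −1.01 ± 0.25 (SE, adjusted p = 0.0037), and it is named here after its values were seen.

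Cyp26a1, the only Cyp26 enzyme among the tested genes, went the other way. Cyp26b1 and Cyp26c1, which also degrade retinoic acid, were not tested. Cyp26a1 had signals of 6898 and 6765 at E11, 6703 and 6317 at E11.5, and 7077 and 7077 at E12 in the cochlea, against 2881 and 3424 at E11, 2348 and 2079 at E11.5, and 2529 and 2055 at E12 in the vestibular organ. The difference was 1.43 ± 0.19 (SE, adjusted p = 3.8e-07), and no vestibular value came near the cochlear ones. Rxrg, a retinoid X receptor, had a lowest value of 177, a median of 194 and a highest value of 283 in the cochlea, against a lowest value of 80.5, a median of 87.4 and a highest value of 102 in the vestibular organ (1.12 ± 0.10, adjusted p = 8.9e-12). The receptors Rarb (−0.50 on the mean and −1.19 at E12), Rarg (−0.08) and Rxra (0.18), the reductase Dhrs3 (−0.39) and the carrier Crabp2 (0.28) did not pass on the mean. Without the E11 arrays, 2 genes were higher and 3 lower. With the values as deposited Cyp26a1 (0.90) and Rxrg (0.96) fell short of the size limit, and 5 genes were lower.

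**Figure D3:**
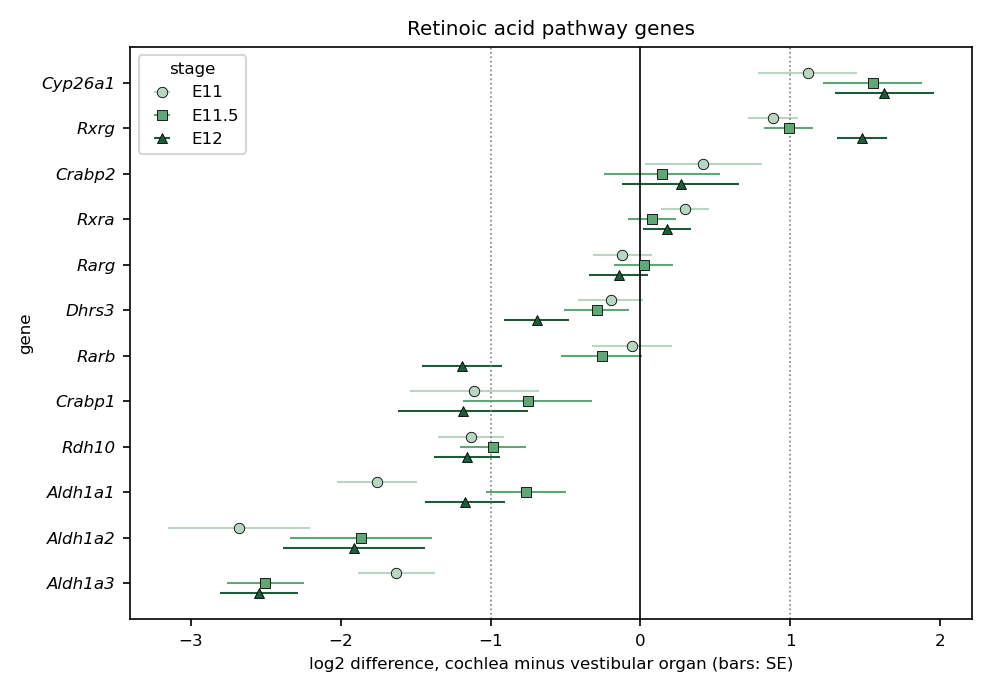
Difference between cochlea and vestibular organ of the 12 tested genes of the retinoic acid pathway, on the log2(signal + 16) scale, with 1 marker per stage and the standard error as bars. Dotted lines mark the size limit of 1 on either side. Cyp26a1 and Rxrg lie to the right at each stage, and Aldh1a3, Aldh1a2, Aldh1a1, Rdh10 and Crabp1 to the left.

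Retinoic acid receptors bind pairs of the hexamer AGGTCA or AGTTCA. The 250 bases before the start of the genes of this pathway were searched for these letters on both strands (RefSeq, GRCm38.p6). The promoter of Cyp26a1 is shown because it holds 2 such hexamers in the same orientation, 5 bases apart, and those of Aldh1a2 and Rxrg are shown for comparison as a gene lower and a gene higher in the cochlea. Capitals mark the hexamers, read as TGAACT where they lie on the other strand.
Cyp26a1, chr19:37697558-37697807, plus strand: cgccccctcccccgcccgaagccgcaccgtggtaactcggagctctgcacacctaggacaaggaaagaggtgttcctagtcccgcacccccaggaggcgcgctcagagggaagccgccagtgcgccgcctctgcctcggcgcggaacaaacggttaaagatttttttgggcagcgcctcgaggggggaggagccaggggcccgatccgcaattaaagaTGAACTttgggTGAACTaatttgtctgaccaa
Aldh1a2, chr9:71215539-71215788, plus strand: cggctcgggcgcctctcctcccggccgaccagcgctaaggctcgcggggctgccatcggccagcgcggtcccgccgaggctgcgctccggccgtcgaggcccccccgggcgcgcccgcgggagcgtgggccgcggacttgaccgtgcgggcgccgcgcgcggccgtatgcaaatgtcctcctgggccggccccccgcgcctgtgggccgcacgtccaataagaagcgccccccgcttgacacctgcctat
Rxrg, chr1:167618015-167618264, plus strand: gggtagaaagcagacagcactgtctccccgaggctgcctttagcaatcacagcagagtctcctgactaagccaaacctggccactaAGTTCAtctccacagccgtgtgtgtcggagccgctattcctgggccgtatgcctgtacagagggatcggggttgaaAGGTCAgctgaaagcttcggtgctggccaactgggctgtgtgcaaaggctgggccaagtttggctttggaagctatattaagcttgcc
In Cyp26a1 the hexamers begin 32 and 21 bases before the start. Among 7515 tested genes with a promoter in the table, 2 (0.0266%) held such a pair with this spacing, and Cyp26a1 was the only one among the 46 higher and 52 lower genes that the table covers. Rxrg held 2 hexamers that lie 70 bases apart, in front of the second of its 2 listed starts, and Aldh1a2 held none. At least 1 hexamer, before any listed start, was found in 13 of the 46 higher genes (28.3%), 11 of the 52 lower genes (21.2%) and 1671 of the 7515 genes (22.2%). The hexamer was thus about as common in the called genes as elsewhere. A match is a description of these letters and does not show binding. The promoters of Aldh1a3 and Rdh10 were not analysed here.

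Among the other signalling pathways, 5 of 32 Wnt pathway genes passed, against 1.44% of all genes, and 4 of them were higher in the cochlea, against 0.684%. This became 3 higher and 0 lower at a pseudocount of 64, and 4 higher and 3 lower with the values as deposited. Besides Frzb and Rspo2 these were the receptor Fzd7, with 1525 to 2314 in the cochlea and 702 to 832 in the vestibular organ (1.32 ± 0.12, adjusted p = 7.8e-11), and the ligand Wnt4, with 167 to 334 in the cochlea and 61.5 to 134 in the vestibular organ (1.27 ± 0.16, adjusted p = 2.3e-07). Sp5, a transcription factor induced by Wnt signals, was lower, with 35.2 to 54.1 in the cochlea and 90.7 to 178 in the vestibular organ (−1.23 ± 0.12, adjusted p = 1.6e-10). The list median was 0.11, which turned to −0.12 with the values as deposited. Of 12 hedgehog pathway genes, 1 was higher and 1 was lower. Ptch1, a hedgehog receptor and transcriptional target, had a lowest value of 437, a median of 462 and a highest value of 549 in the cochlea, against a lowest value of 180.1, a median of 204 and a highest value of 283 in the vestibular organ (1.10 ± 0.10, adjusted p = 9.3e-11). Its second probe set gave 0.42 and was not called, and the call was lost at a pseudocount of 64 (0.96), with the values as deposited (0.94) and with the mean of its probe sets (0.76). Gas1, a co-receptor for hedgehog ligands, had a lowest value of 201, a median of 223 and a highest value of 250.2 in the cochlea, against a lowest value of 606, a median of 755 and a highest value of 917 in the vestibular organ (−1.66 ± 0.15, adjusted p = 8.1e-11), and 2 of its 3 probe sets were called. Gli1, another target, was at 0.36 with overlapping tissues and did not pass.

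Of 30 genes of the BMP and TGF-beta pathways, Fst was higher in the cochlea and Bambi and Smoc2 were lower. Over all genes, 1.44% were called. Bambi, a decoy receptor, had signals of 139 and 163 at E11, 43.5 and 51.0 at E11.5, and 61.3 and 35.1 at E12 in the cochlea, against 220.4 and 458 at E11, 168 and 406 at E11.5, and 172 and 486 at E12 in the vestibular organ. The 2 vestibular pools lay far apart at each stage, yet no cochlear value reached a vestibular one, and the difference was −1.81 ± 0.37 (SE, adjusted p = 0.00039). Smoc2, a matricellular protein, was at −1.38 ± 0.13, with overlapping signals (178 to 641 in the cochlea and 323 to 2092 in the vestibular organ) that were higher at E12 in both tissues. The ligand Bmp4 did not pass (−0.23 ± 0.13, adjusted p = 0.24). None of 17 FGF pathway genes passed with limma, and 6 had an unadjusted p below 0.05, the largest difference being that of Fgf9 (−0.72 ± 0.12), with 209 to 439 in the cochlea and 352 to 723 in the vestibular organ. Of 21 genes of the Notch pathway and the prosensory domain, Hey2 alone passed. Its relative Hey1 was at 0.90 ± 0.09, with 414 to 519.6 in the cochlea and 208 to 251 in the vestibular organ, below the size limit, while the ligand Jag1 (−0.00) and the modifier Lfng (−0.06) were near 0.

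**Figure D4:**
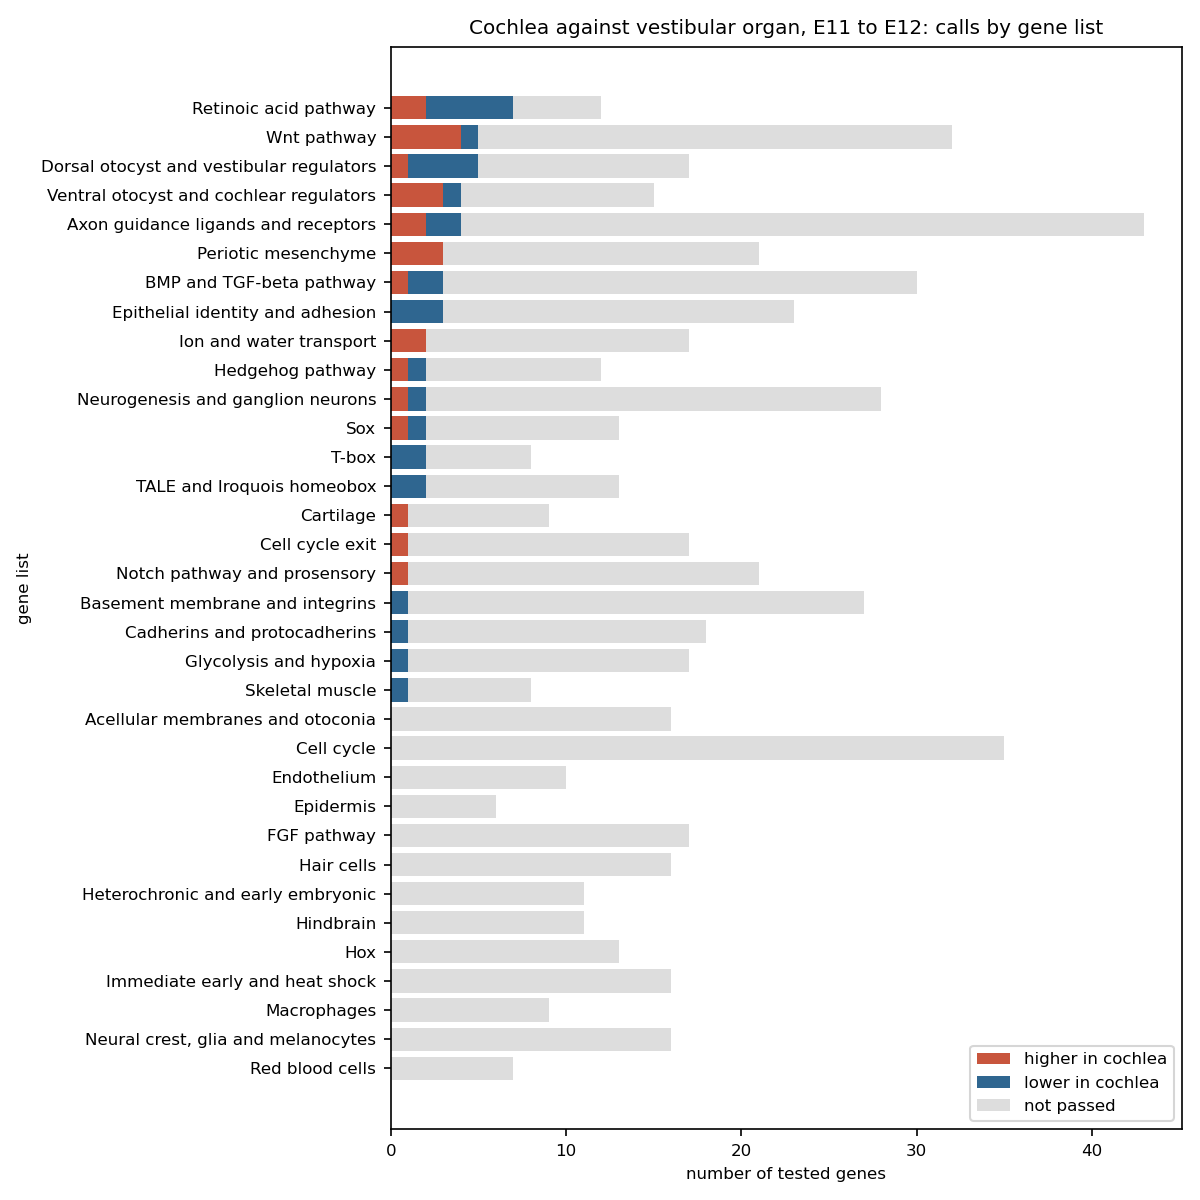
Number of tested genes per list that were higher in the cochlea, lower in the cochlea or did not pass, for 34 gene lists (rows). The retinoic acid pathway has 7 of 12 genes called, against 1.44% of all genes, and 13 lists at the bottom have none.

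Genes of later differentiation were measured as well. None of 16 hair cell genes passed with limma, and 1 had an unadjusted p below 0.05. Atoh1, which starts hair cell differentiation, stayed near the floor in both tissues (10 to 19.4 in the cochlea and 10 to 26.1 in the vestibular organ). None of 16 genes of the acellular membranes and otoconia passed with limma, although 9 had an adjusted p below 0.05 (1418 of 9352 over all genes), 11 had an unadjusted p below 0.05 and the list median was −0.35. The 9 missed the size limit. Among them Oc90, the main otoconial matrix protein, was at −0.82 ± 0.13 (SE, adjusted p = 1.8e-05), with 2813 to 5859.5 in the cochlea and 5684 to 8207 in the vestibular organ, which fell short of the size limit, as did Col11a1 (−0.82 ± 0.12). With the values as deposited, both passed (−1.20 and −1.09). Tecta, a protein of the tectorial membrane, was at −0.17 at E11 and 0.86 at E12. Of 17 genes of ion and water transport, Car13 was higher, as was Atp1b1, a subunit of the sodium pump, with 552 to 1148 in the cochlea and 285 to 343 in the vestibular organ (1.17 ± 0.16, adjusted p = 3.3e-07).

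Of 28 genes of neurogenesis and ganglion neurons, Isl1 was higher and Gap43, a growth cone protein, was lower (−1.22 ± 0.20, adjusted p = 1.5e-05). Gap43 signals were lower at later stages in both tissues, with 91.2 and 232 at E11, 58.7 and 60.4 at E11.5, and 26.5 and 24.2 at E12 in the cochlea, against 343 and 343 at E11, 129.7 and 158 at E11.5, and 111 and 85.6 at E12 in the vestibular organ. Neurod1, a neurogenic factor, was at 0.18 at E11 and −0.93 at E12, and Neurog1 was at 0.06 on the mean. None of 35 cell cycle genes passed with limma, and 10 had an unadjusted p below 0.05. Of 17 genes of cell cycle exit, Btg1, which restrains proliferation, was higher, with 427 to 726 in the cochlea and 170.5 to 253 in the vestibular organ (1.42 ± 0.14, adjusted p = 2.4e-10). Ccnd2, which encodes cyclin D2, was at −0.90 ± 0.08 without overlap (2971 to 5730.1 in the cochlea and 7462 to 7938 in the vestibular organ) and fell short of the size limit.

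Genes of cell shape and contact differed in small numbers. Of 23 genes of epithelial identity, 3 were lower in the cochlea, against 0.759% of all genes, and none higher, with a median of −0.22. These were the tight junction proteins Cldn4 (−1.55 ± 0.20) and Cldn8 (−1.45 ± 0.14) and the keratin Krt7 (−1.31 ± 0.14). Cldn4 had a lowest value of 444, a median of 697 and a highest value of 1492 in the cochlea, against a lowest value of 2092, a median of 2171 and a highest value of 2864 in the vestibular organ. Epcam, a general marker of epithelium, lay above the floor on all 12 arrays, with 80.2 to 167 in the cochlea and 126 to 218 in the vestibular organ. Pcdh20 was the only one of 18 cadherins and protocadherins that passed. Of 27 genes of basement membrane and integrins, Fn1 (fibronectin) alone passed, with a lowest value of 1034, a median of 1442 and a highest value of 1648 in the cochlea, against a lowest value of 3542, a median of 4683 and a highest value of 4990.5 in the vestibular organ (−1.65 ± 0.10, adjusted p = 1.8e-16). Of 43 axon guidance genes, the ephrin ligand Efnb2 and the ephrin receptor Epha7 were higher and the semaphorins Sema3e and Sema3b lower. Over all genes, 1.44% were called. Efnb2 had a lowest value of 1187, a median of 1473 and a highest value of 1989.9 in the cochlea, against a lowest value of 382, a median of 412 and a highest value of 451 in the vestibular organ (1.81 ± 0.12, adjusted p = 2.7e-15), where 1 of 3 probe sets gave −0.10. Epha7 (1.00 ± 0.16) lay at the size limit itself and lost its call when any of 6 of the 12 arrays was left out, with values down to 0.92. Sema3b (−1.04 ± 0.20) lost it without either of 2 of them, with values of −0.98 and −0.97. For both genes the other probe sets were not called. At a pseudocount of 64 the list had 1 gene higher and 0 lower, and the epithelial list 0 higher and 1 lower.

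Markers of other cell types were read beside these results. Of 21 tested genes of periotic mesenchyme, 3 were higher in the cochlea, against 0.684% of all genes, and none lower, with a median of 0.34. Without a size limit 9 passed, against 1418 of 9352. With the size limit, 2 were higher at a pseudocount of 64, with the values as deposited and with arrays scaled to a common median. At a pseudocount of 1, with the mean of the probe sets and without the E11 arrays, 4 were higher. None was lower in these settings. The list median was 0.11 with the values as deposited. The summed signal of the list was 8179 to 10350 in the cochlea and 4289 to 6097 in the vestibular organ, without overlap. That of the epithelial list was 9088 to 12298 in the cochlea and 11210 to 12943 in the vestibular organ, which overlapped. The 3 called mesenchymal genes were the matrix proteins Dcn (1.37 ± 0.15), Postn (1.33 ± 0.14) and Col6a1 (1.13 ± 0.14). Next in size were Lum (0.95 ± 0.22) and Vim (0.95 ± 0.09), below the size limit. Dcn had 465 to 1067 in the cochlea and 193 to 404 in the vestibular organ. Twist1, a defining mesenchymal factor, was low in both tissues (19.1 to 79.3 in the cochlea and 10 to 54.1 in the vestibular organ) and at 0.61, and was at the floor on 2 vestibular arrays. None of these 21 markers was at the floor on all 12 arrays. The other 5 of 26 listed genes did not pass the filter on low values and were not examined. The part of mesenchyme in genes that were higher in the cochlea was not tested.

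Of 9 cartilage genes, Cnmd was higher (1.15 ± 0.09, and 0.65 with the values as deposited), but the list median was −0.19. With the values as deposited, and with arrays scaled to a common median, the list had 0 genes higher and 1 lower. At a pseudocount of 1 it had 1 higher and 2 lower. The summed list signal was 6214 to 11243 in the cochlea and 6211 to 8199 in the vestibular organ, which overlapped. Cnmd, with 4101 to 5927 in the cochlea and 1920 to 3100 in the vestibular organ, is part of that sum. Of 8 skeletal muscle genes, Tnnt1 was lower (−1.11 ± 0.19), with list sums of 381 to 442 in the cochlea and 443 to 535 in the vestibular organ. No gene of endothelium (10 tested), red blood cells (7), macrophages (9), neural crest and glia (16), hindbrain (11) or epidermis (6) passed with limma. At an unadjusted p below 0.05 these lists had 0, 2, 2, 5, 0 and 2 genes in the same order. The sums of these lists overlapped between the tissues, for example 4097 to 10720 in the cochlea and 3252 to 6407 in the vestibular organ for red blood cells. Of 17 genes of glycolysis and hypoxia, Pfkl was lower (−1.42 ± 0.22), and none of 16 immediate early and heat shock genes or 11 heterochronic genes passed with limma (1 and 5 at an unadjusted p below 0.05).

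The test of whether the difference itself moved between E11 and E12 called 17 genes (0.182%), 9 with a positive (0.0962%) and 8 with a negative change (0.0855%). The count was 10 without the second cochlea pool of E12. Tac1 had the largest positive change (3.14 ± 0.32, adjusted p = 4.6e-08), from a difference of 1.39 at E11 and 4.53 at E12. Fst changed by 1.92 ± 0.34 (SE, adjusted p = 0.0019). Fam184b had 48.7 and 41.2 at E11, 65.7 and 63.5 at E11.5, and 216 and 271 at E12 in the cochlea, against 36.4 and 41.8 at E11, 10.3 and 20.1 at E11.5, and 22.7 and 46.4 at E12 in the vestibular organ, and its difference changed by 2.25 ± 0.39 (SE, adjusted p = 0.0012). On the other side the gap of Timp3 (−1.79 ± 0.27), Pcdh20 (−2.04 ± 0.39), Arhgap20 (−1.62 ± 0.36) and Meis2 (−1.27 ± 0.26) widened below 0.

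The difference of Bmp6, a BMP ligand, had opposite signs at E11 and E12. Its signals were 519 and 563 at E11, 416 and 462 at E11.5, and 584 and 521 at E12 in the cochlea, against 306 and 283 at E11, 314 and 352 at E11.5, and 876 and 1085 at E12 in the vestibular organ. The difference was 0.84 at E11 and −0.80 at E12, with a change of −1.65 ± 0.22 (SE, adjusted p = 1.3e-05). The vestibular signals of E12 stood far above those of E11, while the cochlear values stayed within 416 to 584. Lrrn1, a transmembrane protein with leucine-rich repeats, had a change of −2.13 ± 0.40, with 10 to 61.7 in the cochlea and 68.5 to 167 in the vestibular organ. Ces1d, a carboxylesterase, was at −0.12 at E11 and 2.48 at E12, with falling vestibular signals, and its call on the mean (1.04) was lost without the second cochlea pool of E12 (0.99). Of the 135 genes, 105 had a larger difference at E12 than at E11, 51 of 64 on the higher and 54 of 71 on the lower side. The test of the change called a widening in only 6 of the 64 and 5 of the 71. The share over all genes was not computed, so the 105 is a description without a background. The E11 arrays also held more values at the floor, and the part of this in the trend was not tested.

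At E10.5, the first stage at which the 2 regions were separated, 232 genes (2.48%) differed, 60 higher (0.642%) and 172 lower (1.84%) in the cochlea. Of the 135 genes, 128 (94.8%) had the same sign at E10.5, as had 71% of all genes. At E10.5, 55 (40.7%) were called in the same direction, against 2.4% of all genes, and 1 in the opposite direction. Sox21 was at 1.89 at E10.5, Dlx1 at −3.18 and Kcnd2 at −2.62, close to their values at E11 to E12. Otx2 was at 2.00, a lower bound, since both vestibular arrays of E10.5 were at the floor, with cochlear pools at 131 and 57.7. Clu (0.79), Fst (0.53), Tac1 (0.07) and Timp3 (−0.39) were well below their values at E11 to E12 in size. The 2 cochlear pools of E10.5 lay apart for Clu (228 and 99.1) and Fst (72.9 and 27.0).

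The test of the difference at E11 to E12 against that at E10.5 called 40 genes (0.428%), 33 with a positive (0.353%) and 7 with a negative change (0.0749%). The largest belonged to Ces1d (3.03 ± 0.32, adjusted p = 4.9e-08), which was lower in the cochlea at E10.5 (−1.99), Clu (2.98 ± 0.43, adjusted p = 3.2e-05), Tac1 (2.95 ± 0.26, adjusted p = 8.6e-10) and Fst (2.58 ± 0.28, adjusted p = 9.6e-08). On the negative side were Pcdh20 (−1.94 ± 0.32, adjusted p = 0.00027), Timp3 (−1.86 ± 0.22, adjusted p = 8.1e-07), Vit (−1.86 ± 0.22, adjusted p = 8.1e-07) and Aldh1a3 (−1.31 ± 0.30, adjusted p = 0.023). This count was 20 without the second vestibular pool of E10.5 and 110 without the first cochlea pool of E10.5. The shorter dispase step at E10.5 and the stage cannot be told apart.

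At E12.5 to E13.5 the cochlea was set against the mean of the utricle with ampullae and the saccule, and 188 genes (2.01%) differed, 79 higher (0.845%) and 109 lower (1.17%) in the cochlea. Of the 135 genes, 125 (92.6%) had the same sign in the later window, against 44.1% of all genes. There, 67 (49.6%) were called in the same direction, against 1.7% of all genes. These were 37 of the 64 higher and 30 of the 71 lower genes, and none was called in the opposite direction. Clu (4.23), Tac1 (4.18), Fst (3.74), Hey2 (2.71) and Otx2 (2.03) remained higher in the cochlea, and Apobec2 (−2.39), Kcnd2 (−2.47) and Aldh1a3 (−2.43) lower.

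**Figure D5:**
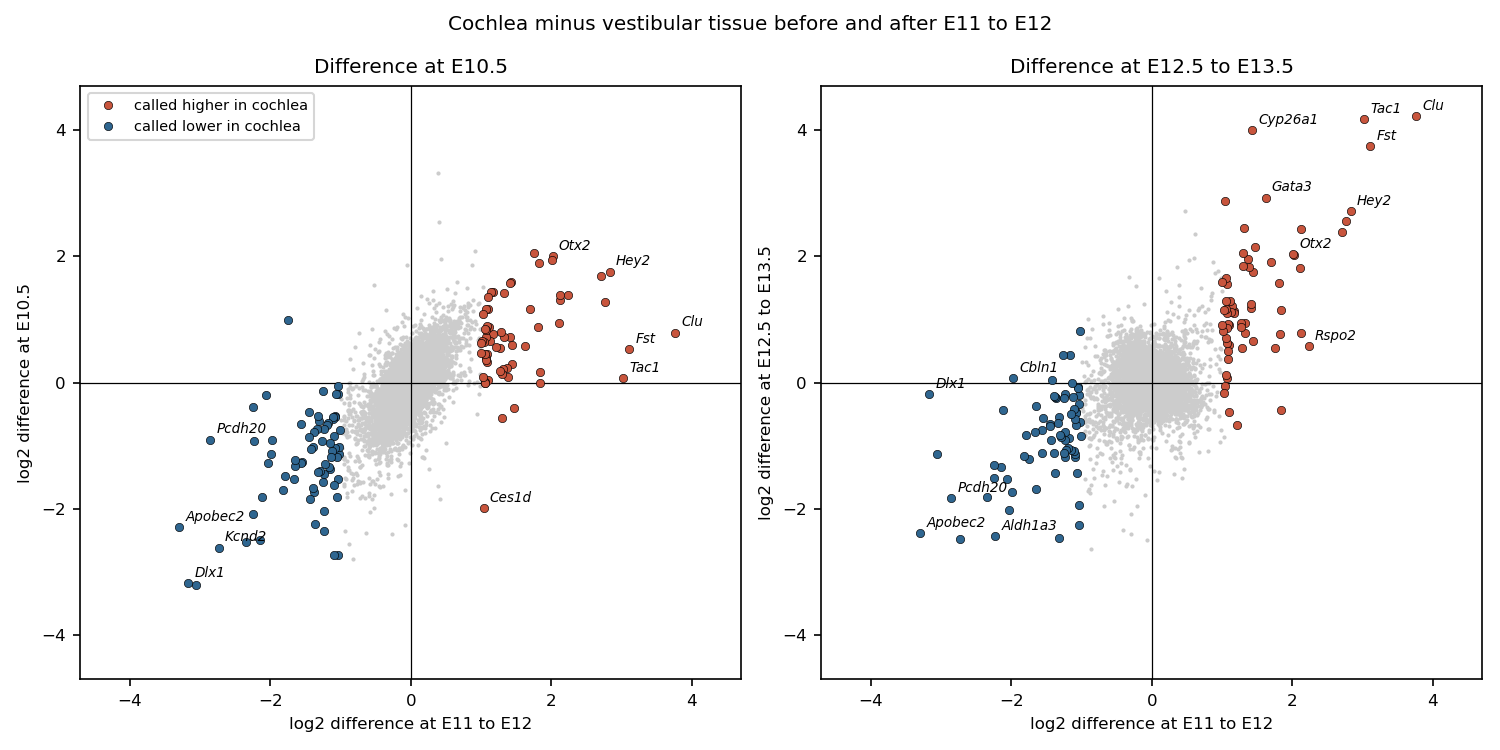
Difference between cochlea and vestibular tissue at E10.5 (left panel, y axis) and at E12.5 to E13.5 (right panel, y axis) against the difference at E11 to E12 (x axes), on the log2(signal + 16) scale. Grey points are all 9352 genes, coloured points the 64 genes higher and the 71 lower in the cochlea at E11 to E12. At E12.5 to E13.5, Dlx1 and Cbln1 lie near 0 and Cyp26a1 near 4.

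The test of the later window against E11 to E12 called 242 genes (2.59%), 123 with a positive (1.32%) and 119 with a negative change (1.27%). Cyp26a1 was at 4.00 in the later window, a change of 2.57 ± 0.25 (SE, adjusted p = 1.2e-09). Differences that were large at E11 to E12 and small later belonged to Dlx1 (−0.19 in the later window, change 2.98 ± 0.44, adjusted p = 4.3e-06), Cbln1 (0.07, change 2.04 ± 0.21, adjusted p = 2.3e-09) and Tbx3 (−0.44, change 1.69 ± 0.16, adjusted p = 5.4e-10). On the cochlear side Rspo2 was at 0.58 later (change −1.65 ± 0.15, adjusted p = 1.0e-10). The later vestibular samples were dissected as separate organs, so a change of stage and a change of what was dissected cannot be told apart.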

How the data were processed

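The deposited values are linear intensities of probe sets that the authors obtained with MAS5, according to the submitters' processing notes, with a floor of 10. Its version and scaling target were not known here. All 64 arrays were quantile normalized and transformed to log2(signal + 16). A probe set was kept if it reached its array's median on at least 2 of 64 arrays (15337 of 22626), 14014 of them had 1 gene symbol in the platform annotation, and the probe set with the highest mean stood for each of 9352 genes. Of all probe sets, 20380 had 1 symbol, 691 several and 1555 none. limma 3.58.1 in R 4.3.3 fitted 32 group means (32 residual degrees of freedom) with a variance trend. A call needed a Benjamini-Hochberg adjusted p below 0.05 and a log2 difference of at least 1. On simulated data the fit recovered 49 of 50 genes changed by 1.25 and 50 of 50 changed by 2 on the log2 scale, with 0 calls among 9152 unchanged genes. The simulation added independent normal noise to normalized group means. It held no floor, no difference in array scale and no effect shared by the genes of a pool, so it does not address those limits. Named genes are the 15 leading genes on each side with 1 sign at all 3 stages, up to 6 per list, up to 6 each way per test between stages, and a panel. The comparison, the lists and the panel were chosen with earlier results of these data known. Alternatives changed the normalization, pseudocount, filter, probe set rule, weights, block and arrays.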

Additional observations from a re-analysis of the deposited data

Results flagged for a closer look

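These genes had a difference between cochlea and vestibular tissue that itself differed between stages by the test of that change, on the log2 scale. From E11 to E12, the difference moved upward for Tac1 (3.14), Ces1d (2.60), Fam184b (2.25), Smpx (1.94), Fst (1.92) and Cars (1.83), and downward for Meis2 (−1.27), Arhgap20 (−1.62), Bmp6 (−1.65), Timp3 (−1.79), Pcdh20 (−2.04), Lrrn1 (−2.13), Agr3 (−2.23) and Ddx25 (−2.64). Ddx25 was at 109 and 195 at E11, 194 and 154 at E11.5, and 10 and 10 at E12 in the cochlea, against 10 and 10 at E11, 10 and 10 at E11.5, and 10 and 10 at E12 in the vestibular organ, so that its call rests on 4 cochlear arrays. Cars was at the floor on all arrays but the 2 cochlear and 1 of the vestibular arrays of E12, and Smpx stayed below 50 on all 12 arrays. Agr3 had signals of 61.6 and 10 at E11, 27.2 and 35.7 at E11.5, and 47.9 and 39.7 at E12 in the cochlea, against 37.8 and 21.8 at E11, 45.6 and 44.4 at E11.5, and 278 and 252 at E12 in the vestibular organ.

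Against E10.5, the difference at E11 to E12 had moved upward for Ces1d (3.03), Clu (2.98), Tac1 (2.95), Fst (2.58), Smpx (2.17), Nrp2 (2.13) and Moxd1 (1.18), and downward for Bmp6 (−1.23), Aldh1a3 (−1.31), Adamts5 (−1.40), Vit (−1.86), Timp3 (−1.86) and Pcdh20 (−1.94).

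At E12.5 to E13.5, the difference had moved upward for Dlx1 (2.98), Cyp26a1 (2.57), Irx3 (2.24), Cbln1 (2.04), Chst15 (1.99), Hnrnpd (1.91), Col14a1 (1.91), Tbx3 (1.69), Tac1 (1.16) and Pcdh20 (1.01). It had moved downward for Sox21 (−1.06), Ntng1 (−1.34), Rspo2 (−1.65), Dkk2 (−1.91), Ttyh1 (−1.93), Hbb-b2 (−1.96), Nefm (−2.11), Ddx25 (−2.26) and Gfi1 (−2.44). Gfi1, a hair cell factor, was at the floor on every cochlear array of E11 to E12 and reached at most 16.7 in the vestibular organ. Hbb-b2 and Nefm mark red blood cells and neurons, whose part in these samples was not tested.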

How the results depend on the processing

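All 30 leading genes kept their call under every alternative that was followed gene by gene. The test of each probe set alone was not followed in this way. In it, the other probe sets of Ntng1 and Col14a1 and 1 of those of Efnb2 were not called. Of the 67 named genes called on the mean of the 3 stages, 63 kept it when any 1 array was left out. Under every alternative followed gene by gene, 44 kept it. A pseudocount of 64 gave 72 calls on the mean, 66 at E11, 88 at E11.5, 114 at E12 and 132 for the later window against E11 to E12, since it shrinks the differences of dim genes. With the values as deposited there were 210 calls on the mean (16.2% higher in the cochlea, against 47.4%), 209 at E11 (34 higher, 175 lower), 283 at E11.5 (36 higher, 247 lower), 325 at E12 (52 higher, 273 lower) and 383 for the later window (314 upward, 69 downward). The median over all genes was then −0.26 on the mean of the 3 stages and 0.21 for the later window. Scaling to a common median gave 150 calls on the mean (71 higher, 79 lower). Testing each of the 14014 probe sets alone gave counts of probe sets, which are not comparable with counts of genes. These were 193 on the mean, 26 for E12 against E11, 63 against E10.5 and 376 for the later window. Array weights gave 54 for E12 against E11, and the cause was not tested. Leaving out 1 array gave 129 to 144 calls on the mean, 99 to 109 at E11, 92 to 146 at E11.5, 144 to 194 at E12, 10 to 21 for E12 against E11, 20 to 110 against E10.5 and 202 to 276 for the later window. A lone array was taken to vary like the other groups. A replicate block gave 135 calls on the mean, with the same 135 genes, and 139, 160 and 206 at E11, E11.5 and E12. It gave 18 for E12 against E11, 50 against E10.5 and 245 for the later window. The labels tie no replicate number to a shared litter, and the deviations of same-numbered pools correlated at −0.0129, 0.187 and 0.139 at E11, E11.5 and E12, so the numbers were not read as pairs. A variance without a trend, chosen after seeing the data, gave 135. The sign turned, without any call, for Hbb-y (−0.01, against 0.41), Tecta (−0.01), Neurog1 (−0.18) and Otog (−0.38) with the values as deposited, for Otog (−0.09) with a common median, and for Jag1 (0.03) without the E11 arrays and (−0.07 to 0.06) with 1 array left out. Arrays near the floor limit dim genes, whose differences are bounds.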

Other observations

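Several called genes outside the lists were chosen here after their values were seen. No list of their kind was tested, so each stands for itself. Cfb, which encodes complement factor B, had 791 to 1512 in the cochlea and 204 to 676 in the vestibular organ (1.27 ± 0.30, adjusted p = 0.0023). Cfi, a protease that inactivates complement, had 152 to 356 in the cochlea and 71.0 to 128 in the vestibular organ (1.00 ± 0.17, adjusted p = 4.7e-05). Vegfc, a growth factor for lymphatic vessels, had 29.0 to 79.4 in the cochlea and 10 to 23.9 in the vestibular organ (1.38 ± 0.14, adjusted p = 6.7e-10). Edn1, the endothelin 1 precursor, was at the floor on all 6 vestibular arrays and at 31.0 to 60.7 in the cochlea, so that its difference of 1.06 ± 0.09 is a lower bound.

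Per2, a repressor of the circadian clock, had 33.4 to 88.4 in the cochlea and 10.9 to 33.6 in the vestibular organ, which overlapped (1.07 ± 0.17, adjusted p = 8.9e-06). Arntl, an activator of the clock, had 188 to 294 in the cochlea and 92.7 to 124 in the vestibular organ (1.02 ± 0.11, adjusted p = 1.7e-09). At E12.5 to E13.5 the difference of Per2 was 0.07 and that of Arntl 0.81.

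Among genes lower in the cochlea, Penk, the precursor of enkephalins, had medians of 59.8 in the cochlea and 116 in the vestibular organ, without overlap (−1.04 ± 0.17, adjusted p = 1.1e-05), so that the precursors of substance P and of enkephalins lay on opposite sides. Lmo4, a LIM-only regulator needed for the semicircular canals in mice, had a lowest value of 217, a median of 250.2 and a highest value of 307 in the cochlea, against a lowest value of 838, a median of 890.0 and a highest value of 1029.7 in the vestibular organ (−1.79 ± 0.11, adjusted p = 1.3e-16), and it was called at each stage. Nes, the intermediate filament nestin, had 243 to 716 in the cochlea and 874 to 1638 in the vestibular organ (−1.56 ± 0.21, adjusted p = 3.5e-07). Rbfox1, a splicing factor, was at the floor on all 6 cochlear arrays, against 36.1 to 61.2 in the vestibular organ.

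A hexamer bound by Otx-type factors, TAATCC on either strand, was found in the 250 bases before the start of 6 of 46 genes higher in the cochlea (13%), none of 52 lower genes and 6.23% of the 7515 tested genes with a promoter. Other hexamers were searched in the same promoters. Of the 46 higher and 52 lower genes, 5 and 3 held a Gata-type hexamer (AGATAA), against 7.43% of the 7515 genes. A Meis-type hexamer (TGACAG) was found in 9 and 8 (16.8%), and a T-box-type hexamer (AGGTGT) in 6 and 7 (12.2%). The homeodomain core TAATTA was found in 3 and 1 (3.22%). The differences in these shares were not tested, and a match does not show binding.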
